A study of Mus musculus with 10 samples.

Results

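The cytosolic ribosome of the mouse is built from ribosomal RNA and a fixed set of ribosomal proteins, named Rpl or Rplp in the large subunit and Rps or Rpsa in the small subunit. The genes described here were chosen by name, with symbols of that form, no label as pseudogene in the symbol and no ribosomal S6 kinase, and by a level of 1 TPM or more in 5 or more libraries, where TPM is a transcript's share of a library after division by its length. Of 89 genes with such a name, 85 met the level, 50 of the large and 35 of the small subunit, among 13930 genes that met it and 55487 genes in the table. The 4 that did not were Rpl10l and Rps12l1, listed at 0, and Rpl3l and Rpl39l, with means of 0.476 and 0.997 TPM. The members nearest above the limit were Rps4l, with a mean of 15.9 TPM, and Rps3a3, with 18.6 TPM. By the GENCODE M21 annotation, 5 of the 85, namely Rpl32l, Rpl6l, Rps3a2, Rps3a3 and Rps4l, were processed pseudogenes, which are copies of a messenger RNA put back into the genome.

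The libraries came from S452A mice (5 libraries) and WT mice (5 libraries), each from a separate numbered mouse. S452A is a serine-to-alanine change in Ptpn22, also called Pep, a tyrosine phosphatase of immune cells; the sample labels write S452A and the design text S425A. Tumours were grown in all 10 mice from injected MC38 cells, a colon carcinoma line of the mouse. The mice were 8 weeks old at injection, and the tumours were collected at 18 days and broken up with collagenase. Cells sorted as CD8+ T cells were sequenced in bulk, and the study asked how the serine bears on such cells in tumours.

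The libraries did not show the profile of sorted T cells. The summed level of 8 T cell genes (Cd8a, Cd8b1, Trac, Trbc1, Trbc2, Cd3d, Cd3e, Cd3g) was 14.96 to 134.7 TPM in S452A and 12.1 to 125.7 TPM in WT libraries. The summed level of 8 macrophage genes (Apoe, Lyz2, Cd14, Cd68, C1qa, C1qb, Adgre1, Csf1r) was 17341 to 22930 TPM in S452A and 16486 to 23049 TPM in WT libraries. The values therefore describe the RNA of the sorted material as a whole, and fewer cells of a type cannot be told apart from less RNA per cell. Depth per library is unknown, because TPM holds no read counts.

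Ribosomal proteins are made in near-equal amounts, since each ribosome holds a copy of most of them. Most of their messenger RNAs begin with a C and a run of pyrimidines, the 5′ terminal oligopyrimidine (TOP) tract, through which the mTOR pathway and the binding protein Larp1 control their translation. Over evolution these messenger RNAs have left many processed copies in mammalian genomes, many of them near-identical to the parent gene.

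The sequences that bear on the results are of both kinds. The first set shows how alike a gene, its copy and its paralogue are. It gives the first 90 coding bases, 5′ to 3′, of Rps27, of its copy Rps27rt and of its paralogue Rps27l, from the GENCODE M21 transcripts (GRCm38), with capitals where a base differed from Rps27. Rps27 lies on chromosome 3, Rps27rt and Rps27l on chromosome 9.
Rps27: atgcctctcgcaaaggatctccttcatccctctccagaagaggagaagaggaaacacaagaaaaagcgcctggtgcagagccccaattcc
Rps27rt: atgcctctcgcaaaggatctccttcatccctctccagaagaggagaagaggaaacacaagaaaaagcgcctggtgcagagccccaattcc
Rps27l: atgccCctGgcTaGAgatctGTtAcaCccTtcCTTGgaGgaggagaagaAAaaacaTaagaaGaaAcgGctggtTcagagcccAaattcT

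Rps27rt had 0 differences from Rps27 in all 252 coding bases, so a read inside them carries no letter that separates them. Rps27l had 24 differences in the 90 bases shown and 60 in the 252, an identity of 76.2%.

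The second set shows the TOP letters at annotated starts. Each line gives 60 bases before and 20 bases after the start in RefSeq (GRCm38.p6), on the strand of the gene, with capitals for a run of 5 or more C or T that begins with C at the start.
Rpl14, chr9:120571457-120571536, plus strand: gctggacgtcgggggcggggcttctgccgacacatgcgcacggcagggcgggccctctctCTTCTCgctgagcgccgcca
Rpl28, chr7:4792905-4792984, plus strand: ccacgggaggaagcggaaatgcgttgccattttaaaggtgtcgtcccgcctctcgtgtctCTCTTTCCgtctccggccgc
Rps18, chr17:33955646-33955725, minus strand: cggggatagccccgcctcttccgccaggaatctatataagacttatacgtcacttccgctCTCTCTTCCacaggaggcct
Rps27, chr3:90213629-90213708, minus strand: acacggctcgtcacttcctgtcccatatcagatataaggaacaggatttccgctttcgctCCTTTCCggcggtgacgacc
Rps27l, chr9:66946026-66946105, plus strand: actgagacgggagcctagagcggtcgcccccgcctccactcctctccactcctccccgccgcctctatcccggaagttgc

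Rpl14, the member that varied most closely with the others, Rpl28, Rps18 and Rps27 had runs of 6, 8, 9 and 7 bases at the annotated start, and Rps27l had none there. RefSeq windows of 300 bases matched 61 of the 85 members by symbol. A pyrimidine run of that kind stood at an annotated start of 14 of the 61 (23%), against 813 of 27025 genes with a window (3.01%). The letters CCGGAA, the core of ETS family sites, were found on either strand in 34 of the 61 (55.7%), against 16.7% of all genes with a window. CTCTTT on the strand of the gene, which can overlap the run, was found in 37.7% of members against 13.7% of all. Annotated starts are not measured starts in these libraries, so these shares describe the annotation and not start site use.

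Ribosomal protein genes were among the most abundant transcripts, but the level listed under a gene's own name varied widely. The median over the 85 members of the mean TPM in 10 libraries was 569 TPM, 467 for the large and 778 for the small subunit, against 12.1 TPM over all genes tested. Of the 85, 24 had a mean of 1000 TPM or more, 54 lay between 100 and 1000 TPM and 7 lay under 100 TPM.

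The stalk of the large subunit, which recruits the elongation factors, is made of Rplp0 and dimers of Rplp1 and Rplp2. Rplp1 (chr9:61913284-61914542, minus strand, GRCm38), the highest member, had 4366, 4790, 3814, 3612 and 4535 TPM in S452A libraries and 4651, 3761, 4451, 4218 and 4290 TPM in WT libraries. Rplp0, which anchors the stalk, had 2365, 2375, 1888, 1835 and 2059 TPM in S452A libraries and 2042, 1901, 2536, 2223 and 1884 TPM in WT libraries. Rplp2 had 537.2, 499.1, 399.5, 426.1 and 488.4 TPM in S452A libraries and 549.4, 460.9, 493.7, 528.5 and 494.3 TPM in WT libraries. The genotypes overlapped for each of the 3, and the order Rplp1, Rplp0, Rplp2 held in all 10 libraries without overlap between genes. Rpl41, the shortest ribosomal protein, followed Rplp1 with a mean of 3454 TPM, and Rpl32, Rps15 and Rpl13a had means of 2495, 2445 and 2169 TPM.

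At the other end stood Rpl5 (chr5:107900502-107909005, plus strand), which with Rpl11 and 5S ribosomal RNA forms the particle that can bind Mdm2 and so stabilise p53. Rpl5 was listed at 29.3, 31.6, 32.9, 26.0 and 25.8 TPM in S452A libraries and at 37.5, 23.9, 39.7, 38.1 and 35.8 TPM in WT libraries. Its partner Rpl11 was listed at 254.4, 300.9, 299.5, 202.5 and 310.4 TPM in S452A libraries and at 360.6, 296.0, 302.9, 273.7 and 286.3 TPM in WT libraries. The genotypes overlapped for both genes, and Rpl11 was listed above Rpl5 in all 10 libraries. Rps13 and Rpl9 were also low, with means of 77.4 and 81.9 TPM.

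The low values went with near-identical copies listed as genes of their own. A copy was counted as near-identical when its transcript matched that of the member over at least 0.8 of the shorter transcript at 95% identity or more and was 100 bases or longer. The 85 members and their copies formed 81 families, 78 of which held at least 1 copy, with 610 copies in all. In 59 of the 78 the gene that names the family held under 50% of the family's TPM, and in 18 under 10%.

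Rpl5 held 2.01% of its family's TPM, and Gm15500, a transcribed processed pseudogene identical to Rpl5 over 1018 bases, had 1815, 1840, 1342, 1235 and 1528 TPM in S452A libraries and 1549, 1399, 1820, 1583 and 1601 TPM in WT libraries. Rps27, a small subunit protein with a zinc finger, held 2.61%, and Rps27rt, whose coding bases are shown above, had 4124, 4496, 4021, 3445 and 4454 TPM in S452A libraries and 4169, 3720, 4359, 4165 and 4057 TPM in WT libraries. In both families 1 copy held nearly all the TPM in every library, and the genotypes overlapped for both copies. Rps12, Rps23 and Rps28 held 4.81%, 5.48% and 7.40%, beside Rps12-ps3 with a mean of 4655 TPM, Rps23-ps1 with 4651 TPM and Gm10443 with 7630 TPM, all 100% identical over the aligned bases. Few genes held nearly all of their family's TPM: Rpl8 and Rplp2 had copies listed at 0, and Rps3 and Rpl22 held 94.97% and 93.5% of their families.

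**Figure D1:**
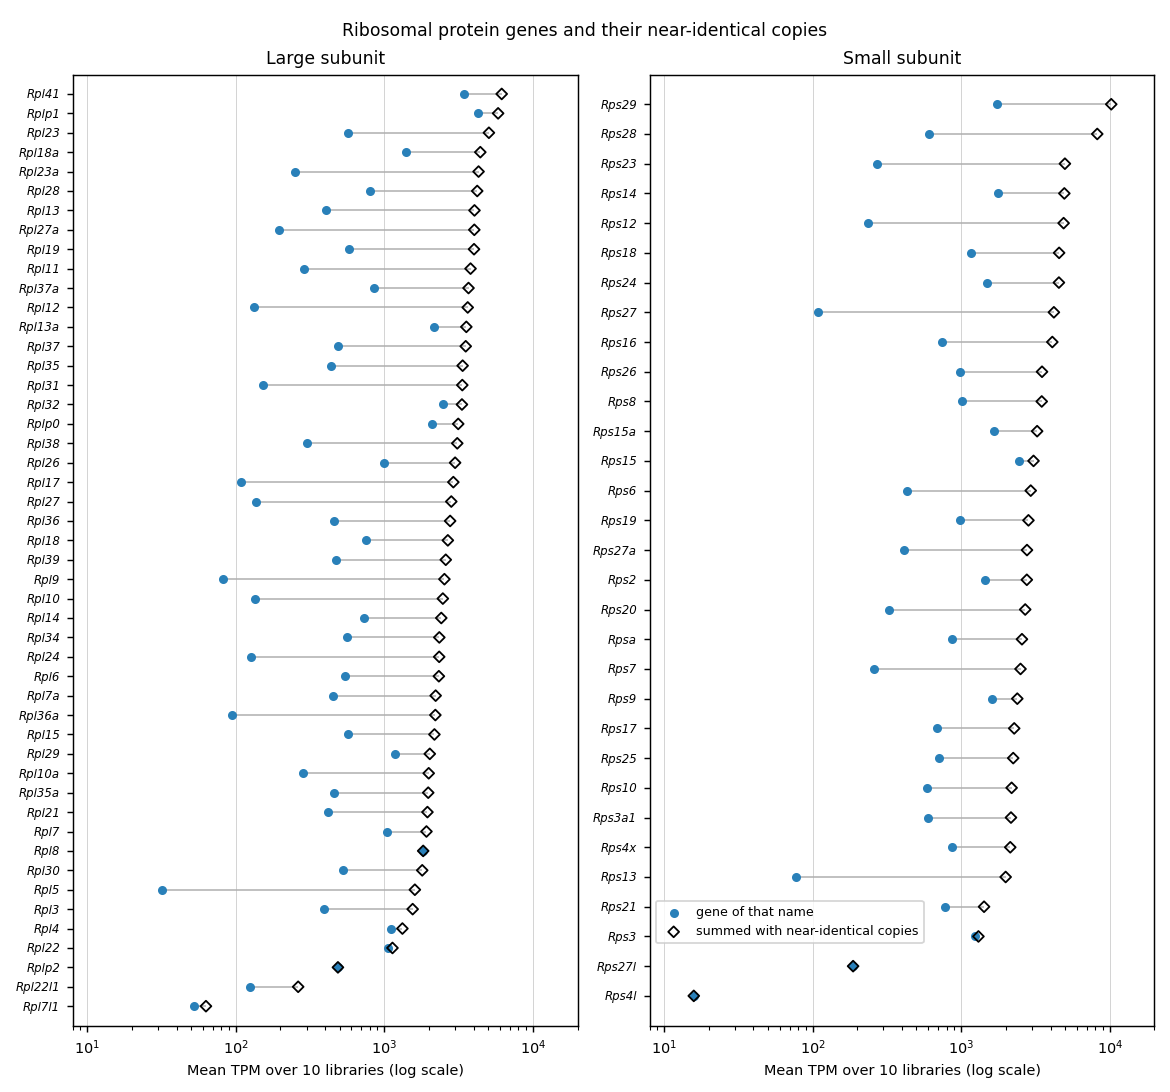
Mean TPM over 10 libraries (log scale) of ribosomal protein genes under their own names (blue points, 79 of 81 families drawn) and summed with their near-identical copies (open diamonds), for the large subunit (left) and the small subunit (right), sorted by the sum. The blue points spread from 15.9 to 4249 TPM, while most families, other than those of Rps4l, Rpl7l1, Rps27l and Rpl22l1, sum to between 1000 and 5500 TPM.

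Summing each family brought the ribosomal proteins to more similar levels. Without the 4 paralogues Rpl7l1, Rpl22l1, Rps27l and Rps4l, the SD over 77 proteins of the log2 mean TPM was 0.66 for families and 1.40 for the genes under their own names. The median was 2775 TPM for families and 588 TPM for the genes, and 72 families against 23 genes lay between 1000 and 5500 TPM, a range chosen after the values were seen. The 4 families above it were Rps29 with 10245 TPM, Rps28 with 8247 TPM, Rpl41 with 6174 TPM and Rplp1 with 5840 TPM. Their leading copies, Gm14303, Gm10443, Gm10076 and Gm10073, had 171, 210, 383 and 496 bases. The median over all families with copies was 467.5 bases. Inside the range, Rpl39 summed to 2594 TPM with a leading copy of 151 bases, and Rpl38 to 3101 TPM with one of 213 bases. TPM divides by length, and the part of length in these sums was not tested. Below the range lay Rplp2, with copies listed at 0 and a sum of 488 TPM, the lowest of the 77. With each TPM multiplied by transcript length, a weighting added after the data were seen, the named gene held under 50% in 49 families and under 10% in 13. The length of a named gene was that of its annotated transcript with the longest coding part, such as 5179 bases for Rps15a and 3706 for Rps20. Whether that transcript was the form present in these libraries was not tested. Which copy a read came from was not tested.

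The share of a family's TPM listed under the named gene changed by few percentage points from library to library in most families. That share depends on the model that divides reads among near-identical transcripts. The share held by the named gene had a median SD over 10 libraries of 0.98 percentage points, over the families with an SD above 0. The SD was under 4 in 76 of 78 families, among them Rpl8 and Rplp2, whose copies were listed at 0. Rpl22l1 was among the exceptions, with an SD of 6.95 points. Where the share is itself small, few points can be a large part of it. Rpl5 held 2.01% with an SD of 0.32 points and a range of 1.58 to 2.39%. Rps27 held 2.61% with an SD of 0.34 points and a range of 2.10 to 3.19%.

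Ribosomal protein genes took a similar share of the RNA in both genotypes. Summed over the 85 members they held 7.01, 7.57, 6.11, 5.73 and 7.04% of all TPM in S452A libraries and 7.24, 6.21, 7.26, 6.68 and 6.73% in WT libraries. The means were 6.69 ± 0.75% in S452A and 6.82 ± 0.44% in WT (SD, n = 5 each), and both the lowest and the highest library were S452A. With the copies, the share was 23.7 ± 2.54% in S452A and 24.3 ± 1.54% in WT, so that about 17.0% in S452A and 17.5% in WT stood under the names of copies alone. The difference between genotypes was smaller than the SD within either of them on both counts.

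Large and small subunit genes kept a nearly constant ratio. Summed large over summed small subunit TPM was 1.23, 1.24, 1.21, 1.23 and 1.21 in S452A libraries and 1.24, 1.21, 1.22, 1.21 and 1.21 in WT libraries. The ratio averaged 1.223 ± 0.014 in S452A and 1.217 ± 0.015 in WT, and with copies 1.286 ± 0.011 in S452A and 1.265 ± 0.013 in WT (SD, n = 5 each). The genotypes overlapped on both counts. As listed, the difference of 0.006 between the means was smaller than the SD within either genotype. With copies the ranges were 1.273 to 1.299 in S452A and 1.249 to 1.281 in WT. The difference between the means with copies, 0.021, was larger than the SD within either genotype, and it was not tested. Relative to its mean the ratio had a smaller SD than the share of TPM.

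**Figure D2:**
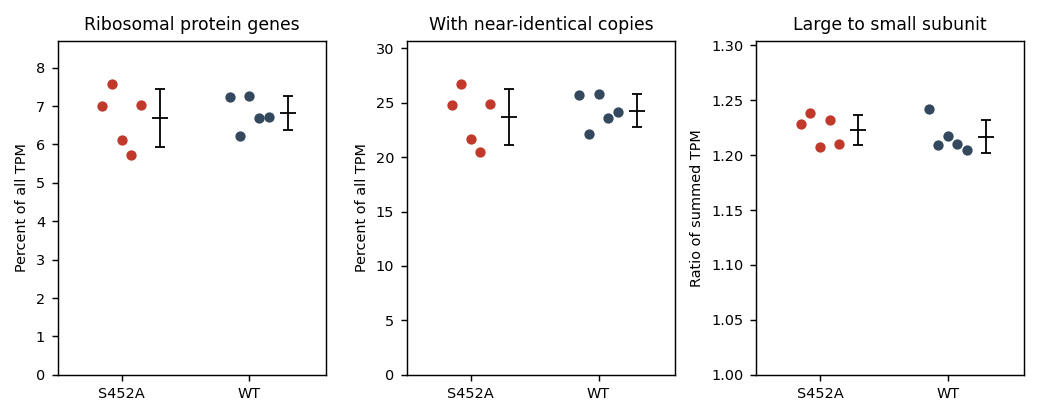
Share of all TPM held by the 85 ribosomal protein genes (left) and by these genes with their near-identical copies (middle), and the ratio of summed large to summed small subunit TPM of the 85 genes (right, axis from 1), for S452A and WT libraries; each point is a library, bars give the mean and SD. The points of both genotypes overlap in all 3 panels, with means of 6.69% in S452A and 6.82% in WT on the left.

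No ribosomal protein gene differed between genotypes by the test across all genes. With limma on log2(TPM + 1) and Benjamini-Hochberg adjustment over 13930 genes, 0 of 85 members had an adjusted p under 0.05, against 1 of all genes tested (0.00718%). By limma's unadjusted p under 0.05 the count was 0 of 85, against 660 of all genes (4.74%), and by the exact Wilcoxon rank-sum test's unadjusted p it was 1 of 85, Rpl7a, against 445 of all genes (3.19%), with none after adjustment. In 0 of 85 did the S452A libraries lie entirely above or below the WT libraries, against 90 of all genes (0.646%). The 95% interval of the difference excluded a 1.5-fold change in 83 of 85 members, against 51.3% of all genes tested. It excluded a 2-fold change in 85 of 85, for which no share over all genes was taken. The median level was 569 TPM for members and 12.1 TPM for all genes tested, and genes of like level were not compared.

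The members of smallest p were of mixed roles. Rpl27, a large subunit protein, had 134.1, 144.2, 115.3, 109.3 and 134.0 TPM in S452A libraries and 154.9, 127.9, 160.8, 150.4 and 132.1 TPM in WT libraries. Its log2 difference was -0.19 (SE 0.11, limma adjusted p = 0.952), with 3 of 5 S452A libraries inside the range of WT. Rpl5 had a log2 difference of -0.24, which was -0.37 without WT 2, Rpl7l1 one of -0.19, Rps27l one of -0.14 and Rps23, which sits at the decoding centre, one of -0.12. On the higher side Rpl7a, a large subunit protein, had 452.7, 493.7, 486.2, 442.7 and 478.3 TPM in S452A libraries and 420.0, 421.7, 464.4, 439.0 and 426.6 TPM in WT libraries, a log2 difference of 0.12. Rpl10a, Rpl23a, Rpl32l and Rpl22 followed with 0.13, 0.12, 0.08 and 0.07. None of these 10 members passed by adjusted p. Without WT 2, 2 of 85 members, Rpl5 and Rpl7l1, had an unadjusted p under 0.05 by limma, against 760 of all genes (5.46%). With genes named as their pseudogenes added, the log2 difference was 0.20 for Rpl27, -0.02 for Rpl10a and -0.01 for Rpl23a, the opposite sign to that of each gene under its own name. With near-identical copies added, it was -0.05 for Rpl27, -0.02 for Rpl10a and 0.01 for Rpl23a. It was then -0.05 for Rpl5, whose own name held 2.01% of its family's TPM, -0.17 for Rpl7l1 and -0.09 for Rps23. On the higher side it was 0.06 for Rpl7a and 0.07 for Rpl22. Gm11518 is a near-identical copy of Rpl27 that is not named as its pseudogene. It had 2355 TPM in WT 3, against 1215 to 1495 TPM in the other WT libraries. The Rpl27 family summed to 2993.5 TPM in WT 3 and to 2560 to 3152 TPM in the other WT libraries. The part of Gm11518 in the change of sign of Rpl27 was not tested.

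Most members were slightly lower in S452A in the means, by far less than the spread between mice. The fitted difference was below 0 in 65 of 85 members (76.5%) and above 0 in 20, while it was below 0 in 53.4% of all genes tested. The median log2 difference was -0.04 over members, -0.05 in the large and -0.03 in the small subunit, against -0.02 over all genes. The direction rested on single libraries: without S452A 4 the median was 0.01 with 46 members above 0, and without S452A 2 it was -0.08 with 8 above 0. The number above 0 was 12 without WT 2, 34 without WT 1, 35 without WT 3 and 42 without S452A 3. Under rescaling by the median log ratio 56 members were below 0 and 29 above, and under quantile normalization 72 were below 0 and 13 above. Other genes differed in the same direction by more: all 10 fibroblast genes examined were below 0, with a median log2 difference of -0.58 and summed levels of 88.8 to 248.7 TPM in S452A and 194.2 to 368.9 TPM in WT libraries. All 13 mitochondrially encoded genes were below 0 too, with a median of -0.42 and summed levels of 21058 to 42365 TPM in S452A and 30003 to 60137 TPM in WT libraries. By limma 0 genes of either list passed by adjusted p, 4 of the 10 and 6 of the 13 had an unadjusted p under 0.05, and their part in the members' difference was not tested. Other marker lists went both ways, with 0 genes passing. Above 0 were 6 of 8 T cell genes and 3 of 3 dendritic cell genes tested, with medians of 0.10 and 0.25. Below 0 were 3 of 4 erythroid genes tested, with a median of -0.30. By family, with copies, 66 of 81 were below 0, the differences ran from -0.17 to 0.17, and none passed by adjusted p.

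**Figure D3:**
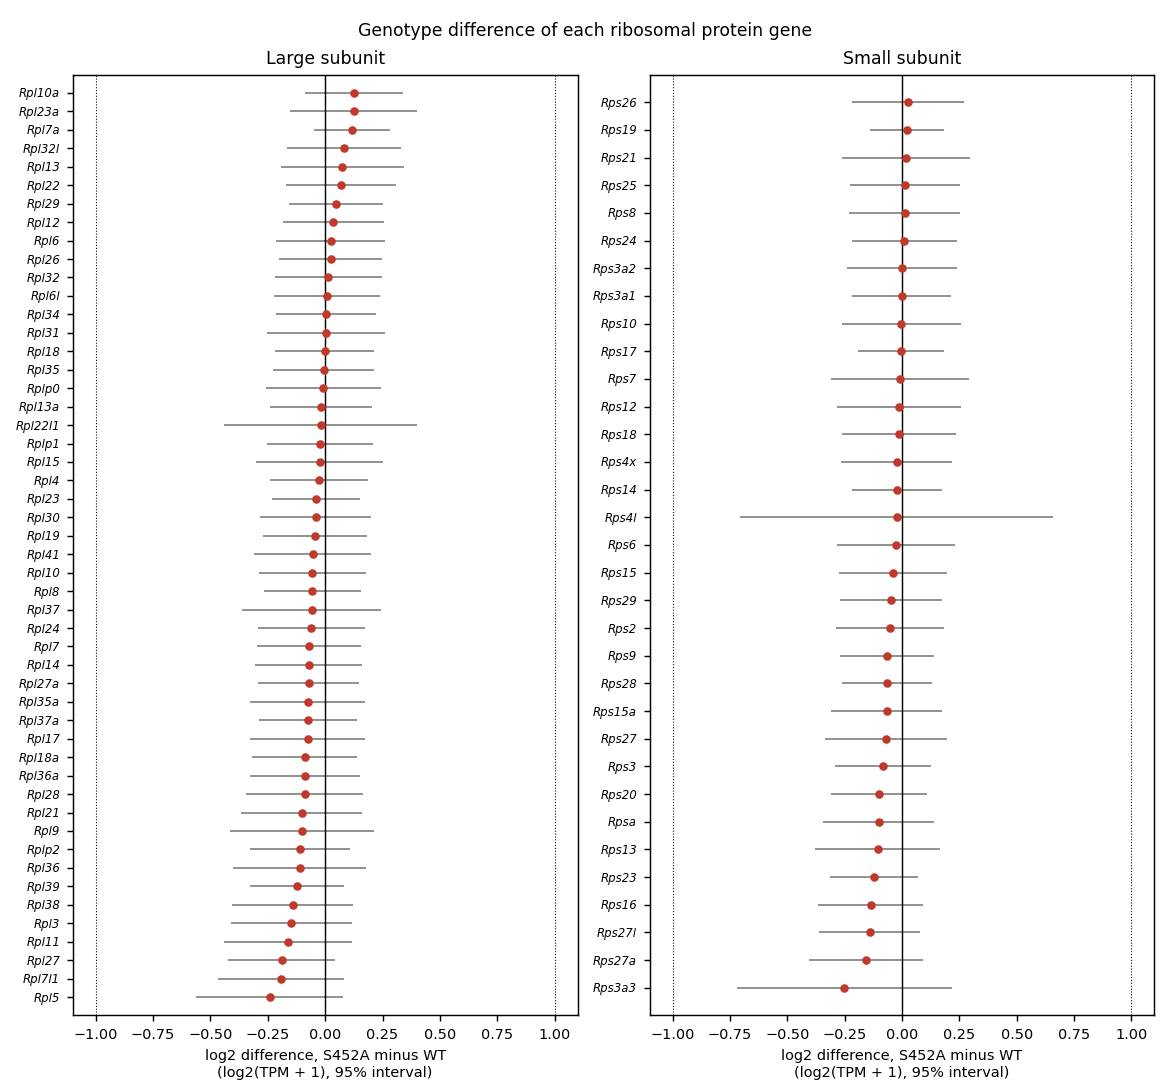
Log2 difference of 83 of the 85 members, S452A minus WT, on log2(TPM + 1), with its 95% interval from limma, for the large subunit (left) and the small subunit (right); dotted lines mark a 2-fold change. All 83 intervals drawn lie inside the dotted lines, and the widest belong to Rps4l and Rps3a3, the 2 members of lowest level.

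The ribosomal protein genes moved together from library to library, whichever subunit they belonged to. After the genotype mean was taken out of log2(TPM + 1), the median Pearson r over 3570 pairs of members was 0.67, against 0.012 over pairs of all genes tested and 0.019 over pairs of genes at 100 TPM or more. It was 0.66 between large subunit genes, 0.68 between small subunit genes and 0.67 across subunits, and the first principal component held 54.0% of the members' variance. Each r is taken across the same 10 libraries and each value is a share of the same total, so these are descriptions without a p.

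The common movement was small. The mean deviation of members from the genotype mean was 0.06, 0.17, -0.11, -0.19 and 0.08 on the log2 scale in S452A libraries and 0.10, -0.15, 0.09, -0.02 and -0.03 in WT libraries. S452A 2 was thus the highest and S452A 4 the lowest library. The coefficient of variation over 10 libraries was 3.43 to 36.1% with a median of 10.9%, against a median of 23.8% over all genes tested and 13.96% over genes at 100 TPM or more.

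Of the 85 members, 26 had r above 0.9 with the mean of the others, 65 above 0.7 and 11 below 0.5. The closest were Rpl14 with 0.99, Rplp1 with 0.99, Rps7, a small subunit protein that can bind Mdm2, with 0.97, and Rpl13a, which can leave the ribosome to act in the interferon response, with 0.97. Rps7 had 282.4, 306.4, 221.7, 189.8 and 292.2 TPM in S452A libraries and 283.2, 221.4, 280.3, 246.3 and 253.8 TPM in WT libraries. Its highest and lowest libraries, S452A 2 and S452A 4, were those of the whole group.

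The members that departed from the rest were mostly paralogues and genes of low level. Rps4l had r of -0.04, Rps19 0.14, Rpl7l1 0.23 and Rpl22l1 0.27. Rps4l had 11.9, 12.9, 22.1, 20.8 and 9.79 TPM in S452A libraries and 21.5, 6.80, 20.8, 19.97 and 12.1 TPM in WT libraries, the widest relative spread of any member. Rps19, a protein of the small subunit head whose human gene is mutated in Diamond-Blackfan anaemia, was the opposite case. It had 928.2, 1020, 960.7, 982.2 and 1027 TPM in S452A libraries and 995.0, 984.3, 926.3, 965.6 and 970.8 TPM in WT libraries. Its coefficient of variation of 3.43% was the lowest of the 85 as listed. Rps19 held 34.5% of its family's TPM. Summed with copies, its coefficient of variation was 7.69%, against 5.96% for the Rpl10 family, and its lowest library was S452A 4 with 2495 TPM.

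**Figure D4:**
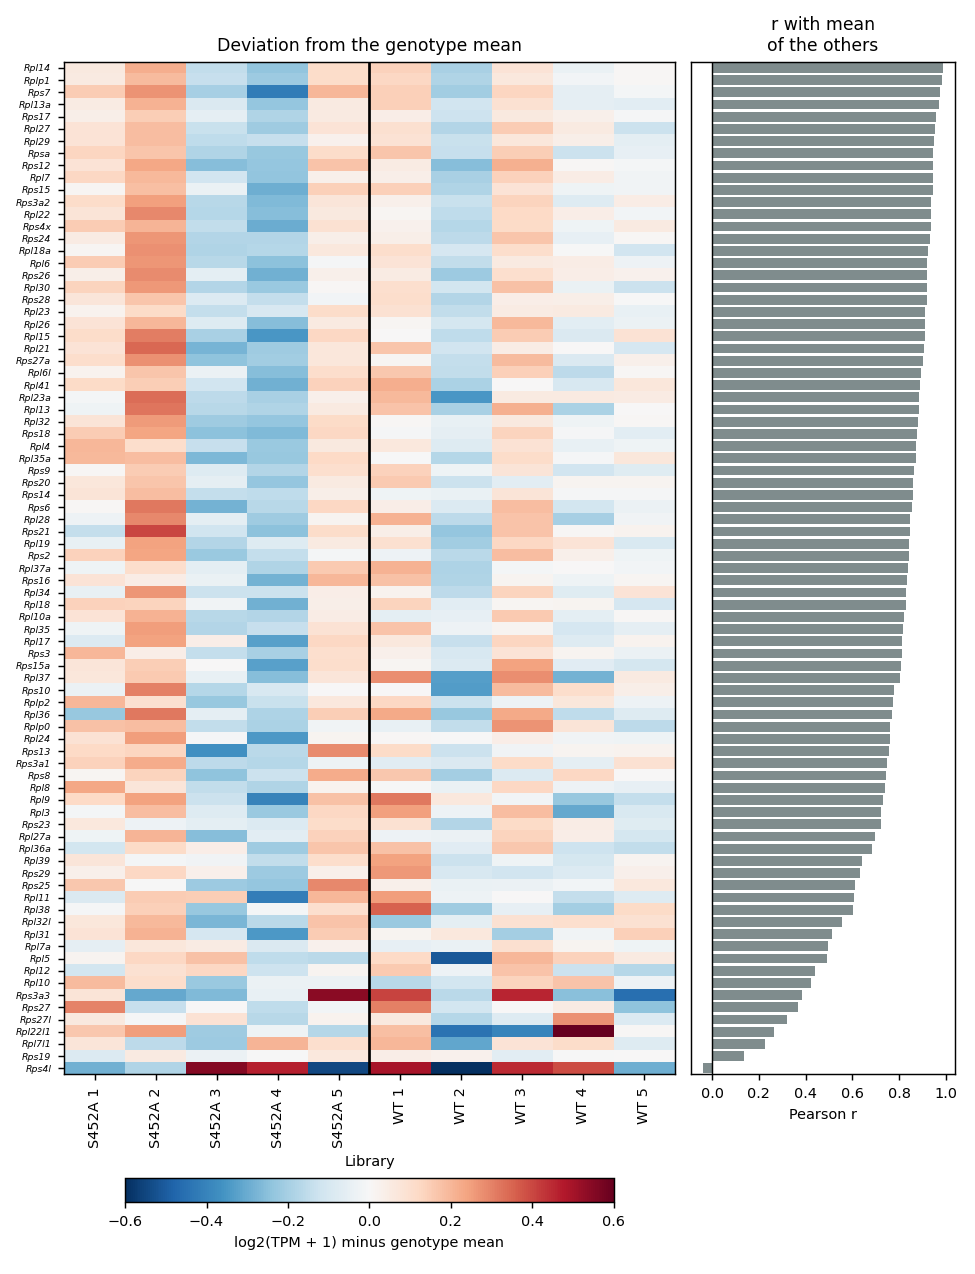
Deviation of log2(TPM + 1) from the genotype mean for 83 of the 85 members (rows) in 10 libraries (columns, S452A left of the line and WT right of it), with colours held at 0.6 beyond that value, and beside it the Pearson r of each member with the mean of the others, by which the rows are sorted. The upper rows share one pattern, high in S452A 2 and low in S452A 4, and the lowest rows, such as Rps4l with r of -0.04, do not.

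Genes of ribosome assembly moved with the ribosomal proteins. Reads that match both a member and a copy are divided between them by a model, so their levels are not independent. Over 10 libraries the mean log2 level of members and that of families of copies had r of 0.97 (rho 0.93). It was 0.94 without the 2 libraries farthest from the median of the copies. For 46 ribosome biogenesis genes r was 0.82 (rho 0.76), and 0.85 without such libraries. For 15 genes whose transcripts are known to carry a TOP tract, among them Eef1a1, Eef2, Tpt1 and Pabpc1, r was 0.71 (rho 0.73) and 0.79. For 27 other translation factors r was 0.15 (rho 0.25), and -0.17 without such libraries.

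Relations with cell content over all 10 libraries were smaller in size than those of the biogenesis and TOP genes. For the T cell genes r was 0.27 (rho 0.24), but the genotypes differed, with -0.17 over the 5 S452A and 0.89 over the 5 WT libraries, a difference that was not tested. For the macrophage genes r was -0.57 (rho -0.56), for 10 fibroblast genes 0.46 (rho 0.49) and for 13 mitochondrially encoded genes 0.12 (rho 0.05). Without the 2 libraries farthest from the median of each, the T cell value was 0.18, the macrophage value -0.21, the fibroblast value 0.04 and the mitochondrial value -0.16. The macrophage relation thus rested largely on S452A 2 and WT 3, and the fibroblast relation on S452A 3 and WT 3. These were 8 relations in all, over the same 10 libraries and without a p, and the part of cell content in the common movement was not tested.

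The machinery around the ribosome gave no genotype call either. Of the 46 biogenesis genes 11 were above 0 and 35 below 0 with a median log2 difference of -0.08, and 0 passed by adjusted p. Gar1, part of the particles that convert uridine to pseudouridine in ribosomal RNA, had the smallest p, with 45.8 ± 8.15 TPM in S452A and 61.9 ± 6.35 TPM in WT (SD, n = 5 each), which is -0.44 on the log2 scale (SE 0.13, adjusted p = 0.952 by limma). Of the 15 other TOP transcripts 8 were above 0 and 7 below 0, with 0 passing. Of the 27 translation factors 15 were above 0 and 12 below 0, and of 21 regulators such as Mtor, Larp1, Myc and Mdm2 12 were above 0 and 9 below 0, with 0 passing in either list. Of the ribosomal proteins that the name rule leaves out, Fau had 915.9 ± 120.1 TPM in S452A and 880.7 ± 58.0 TPM in WT, and Rack1, a scaffold on the small subunit, had 1206 ± 151 TPM in S452A and 1215 ± 121 TPM in WT.

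Paralogues are second genes with a sequence like that of a ribosomal protein gene, often of restricted expression, and not all take its position in the ribosome. Among those compared here, Rps4l was annotated as a processed pseudogene. Of 8 pairs, 3 had a paralogue that was near or at 0: Rpl10l, known from testis, was listed at 0 in all 10 libraries, Rpl3l, known from muscle, reached 1 TPM in 1 library and Rpl39l in 4. The other 5 were compared as the log2 ratio of TPM + 1 by an exact permutation test over libraries, 2-sided, with adjustment over 6 pairs. By that test none of the 5 passed between genotypes, with exact p of 0.437 to 1 and adjusted p of 0.798 to 1; the smallest p that 5 against 5 allows is 0.00794.

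Rpl22 (chr4:152325742-152334071, plus strand) and Rpl22l1 (chr3:28805436-28807424, plus strand) are of interest in T cells, since loss of Rpl22 in mice halts the development of alpha-beta T cells and raises Rpl22l1. Rpl22l1 had 134.6, 143.0, 103.4, 117.8 and 106.4 TPM in S452A libraries and 138.1, 89.2, 92.4, 191.6 and 122.5 TPM in WT libraries. Rpl22 had 1142, 1320, 960.3, 906.1 and 1125 TPM in S452A libraries and 1039, 927.6, 1119, 1061 and 1018 TPM in WT libraries. The log2 ratio of Rpl22l1 to Rpl22 was -3.16 ± 0.17 in S452A and -3.07 ± 0.43 in WT (SD, n = 5 each, exact permutation p = 0.706, adjusted p = 0.848), and Rpl22l1 made up 10.4% of the pair as listed and 18.8% with copies. The highest of the 10 Rpl22l1 values as listed was that of WT 4, where its copy Gm15421 had its lowest value, 108.5 TPM. With copies, Rpl22l1 summed to 300.4 TPM in WT 4, against 315.7 TPM in S452A 1 and 307.1 TPM in S452A 2. The log2 ratio with copies was -2.13 ± 0.13 in S452A and -2.09 ± 0.21 in WT (SD, n = 5 each).

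In 2 other pairs the paralogue was the higher gene as listed and the lower one once near-identical copies were added. Rps27l, a p53 target, had 184.8, 176.7, 188.8, 158.3 and 180.3 TPM in S452A libraries and 204.0, 173.9, 185.3, 236.8 and 184.9 TPM in WT libraries. It made up 63.1% of the pair with Rps27 as listed and 4.27% once the copies of both were added. Rpl36al made up 89.0% of the pair with Rpl36a as listed and 28.0% with copies. Rpl7l1 made up 4.80% of the pair with Rpl7 as listed and 3.19% with copies, and Rps4l 1.83% of the pair with Rps4x as listed and 0.75% with copies. With copies, a sum chosen after the data were seen, the exact permutation test gave these 5 pairs adjusted p of 0.286 to 0.976.

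**Figure D5:**
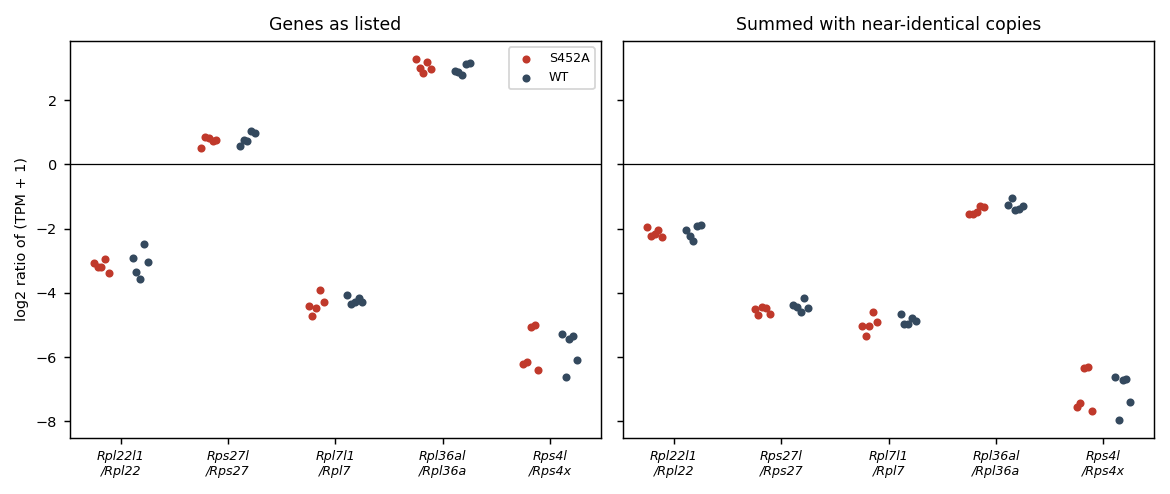
Log2 ratio of TPM + 1 of 5 paralogues to their partners, S452A (red, left) and WT (blue, right), each point a library, for the genes as listed (left panel) and for each gene summed with its near-identical copies (right panel). Rps27l and Rpl36al lie above their partners on the left and below them on the right.

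The annotation gave further features of the members, for which no share over all genes was taken. Within the annotated bounds of 30 members lay 58 small nucleolar RNA genes, whose products guide the modification of ribosomal RNA, 3 of them within Rpl5 and 3 within Rpl7a. The 85 members lay on 19 chromosomes, and the 5 with a single exon were the 5 annotated as processed pseudogenes. The coding length of members annotated as coding had a median of 462 bases.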

How the data were processed

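The authors deposited 1 table of TPM values per gene for 10 libraries; the submitters' processing notes name RSEM 1.3.0, STAR 2.7.9a and GRCm38.p6, and the annotation is not given in the sources used here. RSEM, a tool that estimates transcript levels, divides reads that match several transcripts among them by a model. TPM scales by transcript length and to a fixed total. A read thus adds more TPM to a short transcript than to a long one, and depth is unknown. Columns were matched to mice through the sample descriptions. Genes were matched to GENCODE M21, 55094 of 55487 by versioned identifier. Copies were found with blastn 2.17.0.

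Differences were fitted with limma 3.58.1 (R 4.3.3; lmFit, eBayes with trend) on log2(TPM + 1) over 13930 genes with 1 TPM or more in 5 or more libraries, all 10 libraries and genotype alone, and the fit was tested on simulated data. Paralogue ratios were compared by exact permutation (scipy 1.17.1). Sequences came from RefSeq and GENCODE.

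Values were named for the 10 highest and 6 lowest members, the 5 of smallest p in each direction, paralogue pairs and the 4 most and least correlated; others were chosen for their roles after values were seen. Values of 2 members and 1 further paralogue pair, which were in every fit, sum and adjustment, are not reported here. The members and lists were chosen with earlier results of these data known. Alternatives were other pseudocounts, filters, scalings, summed copies, a replicate block and leaving out each library.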

Additional observations from a re-analysis of the deposited data

Results flagged for a closer look

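Of 82 groups of 5 libraries examined for a library apart from its group, 4 held one, where chance gives about 1 in 20. All 4 were WT libraries of member genes. Rpl5 had 23.9 TPM in WT library 2, against 35.8 to 39.7 TPM in the other 4 WT libraries. Rpl10a had 300.3 TPM in WT library 3, against 258.0 to 270.0 TPM in the others. Rpl8 had 2026 TPM in WT library 3, against 1795 to 1854 TPM in the others. Rps14 had 1888 TPM in WT library 3, against 1739 to 1780 TPM in the others. Without these libraries no member passed by limma's adjusted p.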

How the results depend on the processing

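The count of 0 members passing by limma's adjusted p held under every alternative run, with 2 members, Rpl5 and Rpl7l1, at an unadjusted p under 0.05 without WT 2, against 5.46% of all genes in that fit. Over all genes 1 passed by limma in each alternative, and 0 by the exact Wilcoxon rank-sum test, where 445 had an unadjusted p under 0.05. Same-numbered libraries of the genotypes varied little together, with correlations of their deviations of -0.15 to 0.07. These correlations cannot show whether the mice were paired in the experiment. With a replicate block 0 members and 1 gene of all passed, and 613 genes had an unadjusted p under 0.05 by limma. The median log2 difference of members was then -0.04, and no other call changed. Summing copies moved the median pairwise correlation to 0.84. Some differences changed sign, among them those of Rpl27, Rpl10a and Rpl23a, which were -0.19, 0.13 and 0.12 as listed: the Rps4l to Rps4x ratio to 0.0026 with a pseudocount of 0.1, 0.0107 with genes named as pseudogenes added and 0.0133 with copies; the Rpl36al to Rpl36a ratio to -0.0061 with named pseudogenes and -0.15 with copies. With named pseudogenes Rpl10a gave -0.0194, Rpl23a -0.0123, Rpl27 0.20 and Rps19 -0.0555. With copies Rpl10a gave -0.0196, Rpl22l1 0.0349, Rpl36a 0.0393 and Rps19 -0.0549. Under quantile normalization Rpl13a gave 0.0050, Rps14 0.0045 and Rps19 -0.0133, and under rescaling by the median log ratio Rplp0 gave 0.0053 and Rps7 0.0044. The cause was not tested.

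Leaving out 1 library at a time gave a median log2 difference of members of -0.08 to 0.01, a share difference of -0.35 to 0.11 percentage points, a large to small log2 ratio difference of 0.003 to 0.015 and a median correlation of 0.59 to 0.70. The ratio difference ran from -0.22 to 0.0640 for Rpl22l1 to Rpl22 and -0.22 to 0.16 for Rps4l to Rps4x. Member differences that changed sign ran from -0.0712 to 0.0389 for Rpl13a, -0.00398 to 0.13 for Rpl22, -0.13 to 0.14 for Rpl22l1, -0.0509 to 0.0708 for Rpl32, -0.10 to 0.0179 for Rpl41, -0.0539 to 0.0592 for Rplp0, -0.0690 to 0.0327 for Rplp1, -0.0686 to 0.0163 for Rps14, -0.0847 to 0.0338 for Rps15, -0.10 to 0.0143 for Rps15a, -0.15 to 0.00440 for Rps27, -0.0804 to 0.0161 for Rps29, -0.28 to 0.11 for Rps4l, -0.0736 to 0.0528 for Rps4x and -0.0761 to 0.0960 for Rps7.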
